A study of Mus musculus with 12 samples.

Results

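The cadherins described here are 8 genes, Cdh1, Cdh2, Cdh3, Cdh4, Cdh6, Cdh11, Cdh13 and Cdh15, of 49585 gene identifiers in the count tables. They were chosen by name with values from these same libraries already known, so their levels and fold changes are given as a description with no p-value. RNA-seq was carried out on 4 populations sorted from the bones of wild-type male C57BL/6 mice aged 8 to 10 weeks at steady state, with 3 libraries of 2000 cells for each population. All 4 gates left out CD45+, Ter119+ and CD31+ cells, that is, leukocytes, erythroid cells and endothelial cells. Itga8+ MSCs were Itga8+Alcam+Sca-1- cells, Itga8-Alcam+ BLCs were Itga8-Alcam+Sca-1- cells (bone-lining cells that the labels call osteoblasts), Sca-1+ MSCs were Alcam-Sca-1+ cells, and CD51+CD140a+ MSCs carried integrin alpha V and PDGF receptor alpha. The first 3 came from collagenase-digested bone fragments and the CD51+CD140a+ MSCs from flushed and digested marrow, so for that population cell type and isolation method cannot be told apart. The comparisons ask how Itga8+ MSCs differ from the other populations of the marrow stroma. Nothing in the labels says that the 3 libraries of a population came from separate animals, so the spread between them may be technical.

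Cadherins are calcium-dependent adhesion molecules. The extracellular repeats of a classical cadherin bind a cadherin on the neighbouring cell, and its cytoplasmic tail binds p120-catenin and beta-catenin, which connects through alpha-catenin to actin. Cells that carry the same cadherins tend to sort together, and cadherin adhesion has long been studied in bone between osteoblasts and between the stroma and blood-forming cells. Cdh1 (E-cadherin), Cdh2 (N-cadherin), Cdh3 (P-cadherin), Cdh4 (R-cadherin) and Cdh15 (M-cadherin) are classical cadherins of type I, and Cdh6 (K-cadherin) and Cdh11 (OB-cadherin) are of type II. Cdh13 (T-cadherin) is not a classical cadherin in the strict sense, because it is held in the membrane by a GPI anchor and has no cytoplasmic tail.

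On the GRCm38 assembly, 5 of the 8 genes lie on chromosome 8. These are Cdh11 (chr8:102632095-102785642, minus strand), Cdh3 (chr8:106510891-106557297), Cdh1 (chr8:106603351-106670246), Cdh13 (chr8:118283733-119324921) and Cdh15 (chr8:122847966-122867397), the last 4 on the plus strand. Cdh3 and Cdh1 are separated by 46053 bases. Cdh2 is on chromosome 18 (chr18:16588877-16809246, minus strand), Cdh4 on chromosome 2 (chr2:179442431-179899373, plus strand) and Cdh6 on chromosome 15 (chr15:13028701-13173675, minus strand). No exon of the 8 genes overlaps an exon of another annotated gene, and at least 97.9% of the 50-base words in each gene's transcripts occur in the transcripts of no other gene.

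The libraries held 17580677 to 31332475 counts, and 3 counts, the level taken as the floor of detection, corresponded to 0.0820 to 0.180 CPM (counts for every 1000000 in a library, with TMM scaling). The floor covers counting error only, because the reads are from amplified cDNA without molecular identifiers. The sort markers were examined first. Itga8 transcripts were 102.5 ± 85.7 CPM (SD, n = 3) in Itga8+ MSCs, against 1.74 ± 2.11 in Itga8-Alcam+ BLCs and 2.28 ± 0.529 in Sca-1+ MSCs. CD51+CD140a+ MSCs, which were not sorted on Itga8, held 64.4 ± 16.2 CPM of it. Alcam averaged 3.01 and 4.92 CPM in the Alcam+ sorts and at most 0.139 CPM in the other populations. Ly6a, which encodes Sca-1, averaged 636 CPM in Sca-1+ MSCs and at most 27.5 CPM elsewhere. Pdgfra (CD140a) averaged 768 CPM and Itgav (CD51) 164 CPM in CD51+CD140a+ MSCs, and Sca-1+ MSCs held 874 and 134 CPM of these transcripts. Itga8+ replicate 2 stood apart: its 8 leukocyte markers summed to 7334 CPM, led by Lyz2, S100a9 and S100a8, against 1100 and 495 CPM in replicates 1 and 3, and Itga8 itself was lowest there at 35.2 CPM. Its 7 erythroid markers summed to 1598 CPM, against 158 and 125 CPM in the same replicates and 153 to 434 CPM in the other populations. The BLC libraries had leukocyte sums of 1388 to 2282 CPM, above Itga8+ replicates 1 and 3, and the remaining 6 libraries had at most 737 CPM. Differences of the cadherins that involve Itga8+ MSCs are therefore also given without that library.

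Of the 8 cadherins, 7 passed the filter on low values, at least 0.5 CPM in at least 1 library. Cdh3 did not, and Cdh6 passed it only through a few libraries. The populations differed both in the amount and in the kind of cadherin transcript. Corrected for exon length (TPM), the 8 genes summed to 62.7 ± 47.5 TPM in Itga8+ MSCs and 230.6 ± 106 TPM in Itga8-Alcam+ BLCs (SD, n = 3 each). The Itga8+ sums ranged from 18.6 TPM in replicate 2, the library that stood apart, to 113 TPM in replicate 3. The BLC sums ranged from 168 to 353 TPM. The sums were higher in Sca-1+ MSCs, at 330.5 ± 22.6 TPM, and highest in CD51+CD140a+ MSCs, at 855 ± 116 TPM. In such bulk samples, fewer cells with a transcript and less transcript per cell cannot be told apart.

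**Figure D1:**
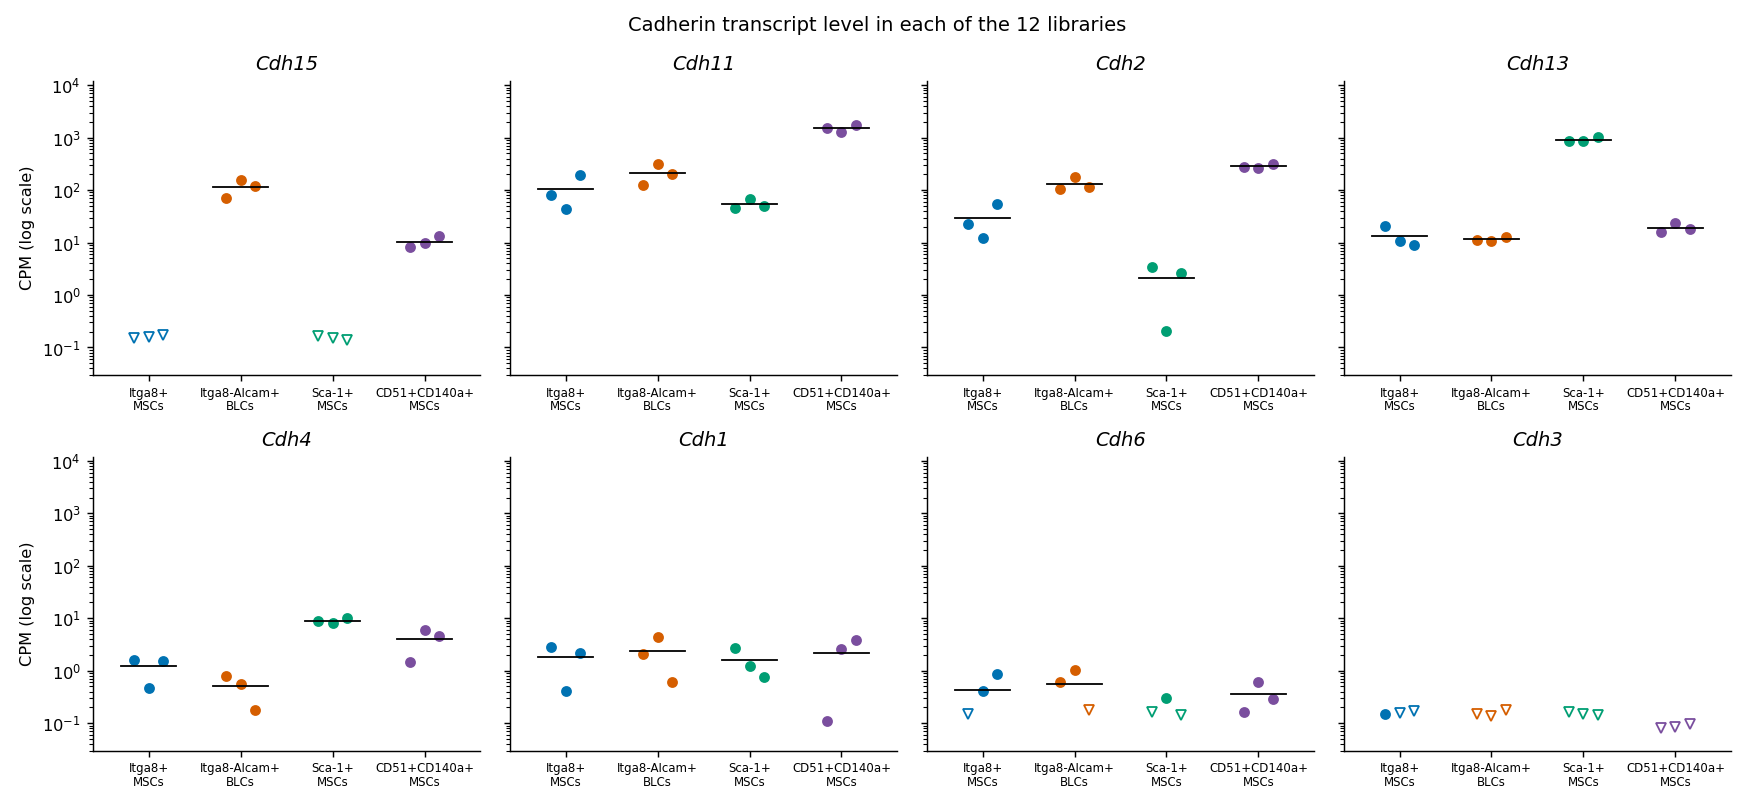
Transcript level of each cadherin (CPM, log axis) in each of the 12 libraries. Filled circles are libraries at or above 3 counts, open triangles are libraries under 3 counts drawn at that library's floor, and black lines are means of 3 libraries, drawn where they exceed the floor. Cdh15 lies between 70.4 and 154 CPM in the Itga8-Alcam+ BLCs and under the floor in every Itga8+ and Sca-1+ library.

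Cdh15 encodes M-cadherin, known above all from muscle satellite cells and myoblasts. It had 0 counts in each of the 3 Itga8+ libraries. The Itga8-Alcam+ BLC libraries held 1414, 3323 and 2007 counts, or 70.4, 154 and 120 CPM. Sca-1+ MSCs had 2, 0 and 0 counts. The CD51+CD140a+ MSC libraries held 300, 345 and 413 counts, or 8.20, 9.89 and 13.3 CPM. Every BLC library was thus above every CD51+CD140a+ library, and both were far above the other populations, which were at or near 0.

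The mean Cdh15 level was 115 ± 42.1 CPM in Itga8-Alcam+ BLCs and 10.5 ± 2.60 CPM in CD51+CD140a+ MSCs (SD, n = 3), a log2 difference of 3.46 (SE 0.51). Against a floor of 3 counts per library, the BLC level was at least 722-fold higher than in Itga8+ MSCs, and at least 599-fold higher without BLC replicate 2, the highest library. The CD51+CD140a+ level was at least 65.7-fold higher than in Itga8+ MSCs. Without Itga8+ replicate 2 these bounds were 714-fold for BLCs and 65.1-fold for CD51+CD140a+ MSCs. Set against the 2 counts in Sca-1+ MSCs, the ratio was 3415 for BLCs (95% counting interval 945 to 28200) and 305 for CD51+CD140a+ MSCs (84.2 to 2520). These intervals cover counting error only, not the spread between libraries or from amplification, and both Sca-1+ counts were in replicate 1.

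Muscle precursor markers were examined beside Cdh15. Pax7, the defining transcription factor of satellite cells, had 1 count in all 12 libraries together, and Calcr, another satellite cell gene, had none. Myod1, which specifies myoblasts, had 3, 89 and 18 counts in the 3 BLC libraries and at most 1 count in any other library. Myog, a gene of differentiating myoblasts, had 134 counts in BLC replicate 2 and at most 1 count elsewhere, and Myf5 had 7 counts in BLC replicate 2 and 0 elsewhere. Chrna1, the muscle acetylcholine receptor subunit, had 20, 242 and 145 counts in the 3 BLC libraries and at most 2 counts in any other. Over the BLC libraries Myod1 and Chrna1 were lowest in replicate 1 and highest in replicate 2, the order of Cdh15, and Myog and Myf5 were at 0 in replicates 1 and 3. The sizes differed: from replicate 1 to replicate 2, Myod1 went from 0.149 to 4.1 CPM, Chrna1 from 0.996 to 11.2 CPM and Cdh15 from 70.4 to 154 CPM. Itga7, an integrin of muscle cells, had 63, 411 and 35 counts in the BLC libraries, lowest in replicate 3, and 164, 267 and 203 counts in the Sca-1+ libraries, which had at most 2 counts of Cdh15. In the CD51+CD140a+ libraries Pax7, Myf5, Myod1, Myog, Calcr and Chrna1 were at 0, and the other 4 markers of the list were present, with means of 28.3 CPM for Des, 25.5 for Msc, 2.03 for Itga7 and 0.794 for Musk.

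As a whole list, the 10 satellite cell and myoblast markers summed to 11.9 to 63.7 CPM in the BLC libraries, 8.51 to 25.4 in Itga8+ MSCs, 50.2 to 62.1 in CD51+CD140a+ MSCs and 27.7 to 35.2 in Sca-1+ MSCs. Des and Msc made up most of the CD51+CD140a+ sum and averaged 9.20 and 2.13 CPM in BLCs. Musk averaged 17.0 CPM in Sca-1+ MSCs and 0.785 CPM in BLCs. Of the 10 markers, 8 exceeded 3 counts in some BLC library and 4 in each of the other populations. The 9 markers of muscle fibres summed to 40.0 to 107 CPM in the BLCs and 23.9 to 60.04 CPM in the Itga8+ MSCs, which had no Cdh15 count, and to at most 4.32 CPM in the other libraries. Bglap, the osteocalcin gene of mature osteoblasts, was at 1753, 1176 and 6983 CPM in the BLC libraries and at most 15.0 CPM in any other. The whole osteoblast marker list, which includes Col1a1, summed to 44740 to 116900 CPM in the BLC libraries and 2932 to 22060 CPM in the others. Over the BLC libraries Bglap was lowest in replicate 2 and Col1a1 was highest there, at 107200 CPM. The part of muscle cells in the Cdh15 level was not tested.

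**Figure D2:**
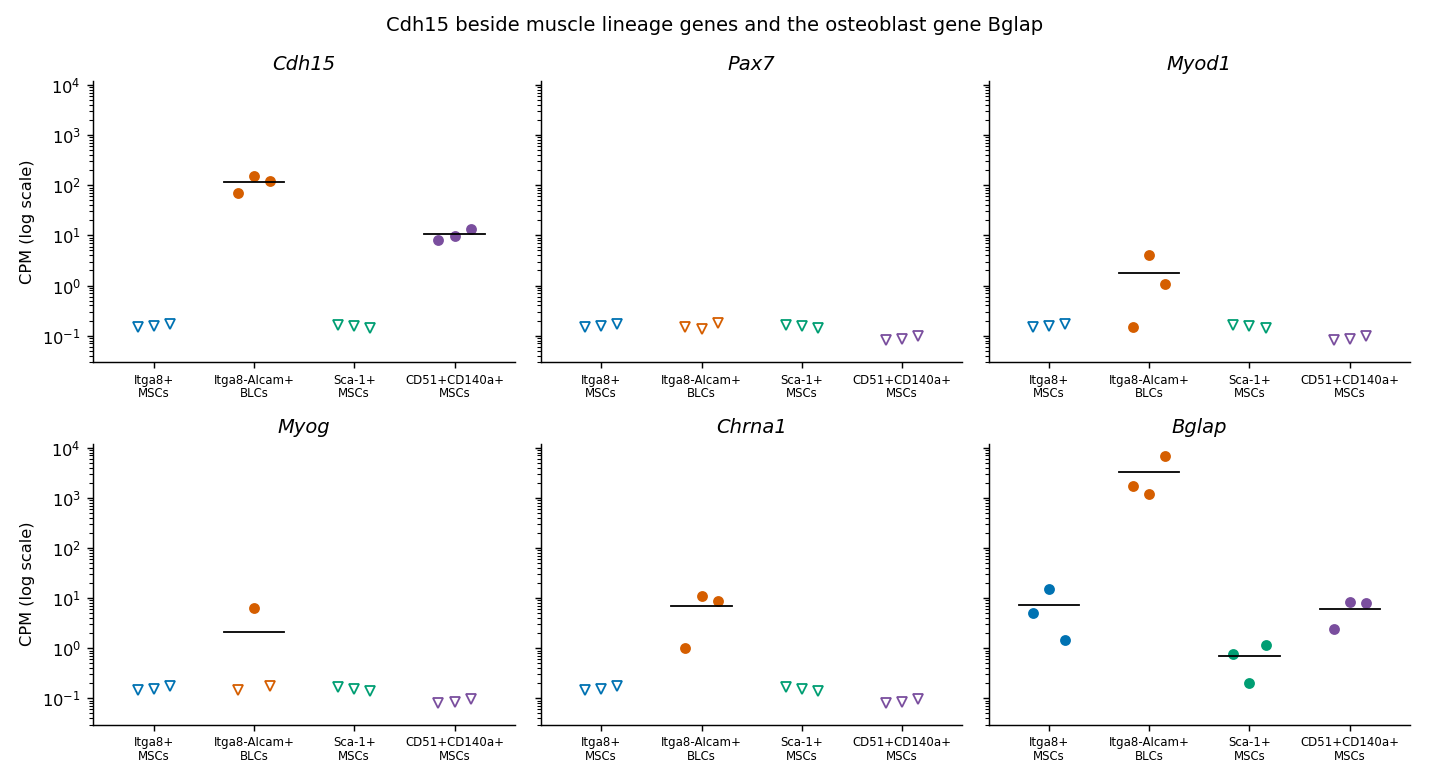
Cdh15 beside 4 muscle lineage genes (Pax7, Myod1, Myog and Chrna1) and Bglap (CPM, log axis) in each of the 12 libraries, drawn as in the plot of all cadherins. Cdh15 lies between 70.4 and 154 CPM in the BLC libraries, where Myod1 and Chrna1 are at or above 3 counts in all 3 and Myog in replicate 2 alone.

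Cdh11 encodes OB-cadherin, the cadherin first described in osteoblasts and carried by many mesenchymal cells. Its levels were 81.2, 42.9 and 194 CPM in the Itga8+ libraries and 126, 317 and 203 CPM in the BLC libraries. Sca-1+ MSCs had 44.9, 66.6 and 50.7 CPM. In CD51+CD140a+ MSCs it reached 1496, 1308 and 1768 CPM, above all the other libraries. The order of the means was CD51+CD140a+ MSCs, BLCs, Itga8+ MSCs and Sca-1+ MSCs, and Itga8+ MSCs overlapped both of their neighbours in that order. Without Itga8+ replicate 2 the Itga8+ mean was 138 CPM, against 106 ± 78.7 CPM with it.

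The log2 difference in Cdh11 between Itga8+ and CD51+CD140a+ MSCs was -3.85 (SE 0.54), and -3.45 without Itga8+ replicate 2. It ranged from -4.61 to -3.45 with 1 library left out. Against BLCs it was -1.02 (SE 0.49), which became -0.62 without Itga8+ replicate 2 and -1.79 without Itga8+ replicate 3, the highest of the 3. Against Sca-1+ MSCs it was 0.97 (SE 0.49), and 1.33 without Itga8+ replicate 2. With 1 library left out, the difference from BLCs ranged from -1.79 to -0.61 and that from Sca-1+ MSCs from 0.17 to 1.33, so both kept their direction. BLCs exceeded Sca-1+ MSCs in Cdh11 (log2 difference 2.00, SE 0.50) and were below CD51+CD140a+ MSCs (-2.82, SE 0.52).

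Cdh2 encodes N-cadherin, the classical cadherin of neural and mesenchymal cells. It was at 22.7, 12.5 and 54.9 CPM in the Itga8+ libraries and at 104, 179 and 114 CPM in the BLC libraries. Sca-1+ MSCs had 3.38, 0.204 and 2.62 CPM, the lowest values of the series, with 4 counts in replicate 2. CD51+CD140a+ MSCs had 281, 270 and 311 CPM. No 2 populations overlapped, and the order was the same as for Cdh11.

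The log2 difference of Itga8+ MSCs in Cdh2 was 3.86 from Sca-1+ MSCs (SE 0.77) and -3.26 from CD51+CD140a+ MSCs (SE 0.74). Without Itga8+ replicate 2 these were 4.20 and -2.87. With any 1 library left out they ranged from 3.05 to 4.39 and from -4.02 to -2.87. Against BLCs the difference was -2.14 (SE 0.70), -1.75 without Itga8+ replicate 2 and -2.90 without Itga8+ replicate 3. BLCs stood below CD51+CD140a+ MSCs by a log2 difference of -1.12 (SE 0.68), which is under 2 SE although the libraries did not overlap. Schwann cells also carry Cdh2, and the 7 Schwann and glial markers summed to 123 to 188 CPM in BLCs, 71.3 to 129 in Itga8+ MSCs, 19.4 to 25.5 in CD51+CD140a+ MSCs and 12.5 to 15.8 in Sca-1+ MSCs. The CD51+CD140a+ libraries thus had the highest Cdh2 with low glial sums, and the part of glia in the BLC level was not tested.

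Cdh13 encodes T-cadherin, which binds adiponectin and is best known from the vessel wall. Its levels in Sca-1+ MSCs were 855, 860 and 1016 CPM. The Itga8+ libraries held 20.6, 10.5 and 8.84 CPM and the BLC libraries 11.4, 10.9 and 12.5 CPM. CD51+CD140a+ MSCs had 16.1, 23.9 and 17.8 CPM. Sca-1+ MSCs were apart from the rest, and Itga8+ MSCs overlapped both the BLCs and the CD51+CD140a+ MSCs.

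Itga8+ MSCs were below Sca-1+ MSCs in Cdh13 by a log2 difference of -6.09 (SE 0.40), and of -5.96 without Itga8+ replicate 2. BLCs were below Sca-1+ MSCs by -6.29 (SE 0.40), and Sca-1+ MSCs exceeded CD51+CD140a+ MSCs by 5.56 (SE 0.39). Against BLCs the Itga8+ difference was 0.20 and against CD51+CD140a+ MSCs -0.53, and 0.37 and -0.36 without Itga8+ replicate 2. The first turned to -0.26 without Itga8+ replicate 1. That between BLCs and CD51+CD140a+ MSCs was -0.73. The 8 endothelial markers summed to 151 to 206 CPM in Sca-1+ MSCs and 21.0 to 49.6 CPM in the other libraries, although Pecam1, which encodes the CD31 excluded by the gate, averaged 5.51 CPM in Sca-1+ MSCs and 3.99 to 6.40 CPM elsewhere. Ramp2 and Tek made up most of the Sca-1+ sum, with means of 93.0 and 69.9 CPM. Cldn5, Egfl7, Emcn and Kdr were not highest in Sca-1+ MSCs, where they averaged 0.941, 2.13, 2.20 and 5.83 CPM. The 8 mural cell markers were not highest in Sca-1+ MSCs (37.7 to 73.0 CPM) but in the Itga8+ libraries (132 to 352) and the CD51+CD140a+ libraries (228 to 280). The last sums were not made up alike. Acta2 averaged 144 CPM in Itga8+ and 11.6 CPM in CD51+CD140a+ MSCs, and Abcc9 1.15 and 96.4 CPM. Mcam, Kcnj8 and Myh11 averaged 1.70, 2.46 and 3.17 CPM in Itga8+ MSCs. The part of vessel cells in the Cdh13 level was not tested.

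Cdh4, which encodes the R-cadherin of retina and brain, was a minor transcript throughout. Sca-1+ MSCs had 8.74, 8.24 and 10.1 CPM and CD51+CD140a+ MSCs 1.45, 5.93 and 4.51 CPM. Itga8+ MSCs had 1.58, 0.468 and 1.56 CPM and BLCs 0.797, 0.556 and 0.180 CPM. Like Cdh13, Cdh4 was highest in Sca-1+ MSCs, with no overlap with another population. The log2 difference of Itga8+ from Sca-1+ MSCs was -2.90 (SE 0.65), and -2.53 without Itga8+ replicate 2. From BLCs, which the Itga8+ libraries overlapped, it was 1.21 (SE 0.66), and 1.61 without that library. The Itga8+ and CD51+CD140a+ libraries overlapped, with a log2 difference of -1.72 (SE 0.63) that became -1.31 without Itga8+ replicate 2 and -1.30 without CD51+CD140a+ replicate 2.

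The remaining 3 genes were near the floor or varied within each population as much as between them. Cdh1, the E-cadherin of epithelia that early erythroid cells also carry, averaged 1.83 ± 1.27 CPM in Itga8+ MSCs, 2.38 ± 1.94 in BLCs, 2.20 ± 1.92 in CD51+CD140a+ MSCs and 1.58 ± 1.06 in Sca-1+ MSCs. Its libraries ranged from 0.109 to 4.45 CPM, and every pair of populations overlapped. The log2 difference of Itga8+ MSCs in Cdh1 was -0.39 from BLCs, 0.21 from Sca-1+ MSCs and -0.26 from CD51+CD140a+ MSCs (SE 1.04 to 1.05), and 0.11, 0.67 and 0.23 without Itga8+ replicate 2, so that 2 of the 3 changed direction. The third also changed with other libraries left out, over a range of -0.27 to 0.89. Epcam, an epithelial surface marker, was at 8.48 to 28.2 CPM in the Itga8+ and BLC libraries and at 0 in the other 6, a split that Cdh1 did not share. Cdh6, the K-cadherin of kidney, was between 0 and 1.02 CPM, with at most 22 counts in a library, and all populations overlapped. Its log2 difference was -0.41, 2.00 and 0.27 in the same comparisons (SE 1.42 to 1.57), and -0.38, 2.01 and 0.30 without Itga8+ replicate 2. With any 1 library left out, the difference from BLCs ranged from -1.45 to 0.34 and that from CD51+CD140a+ MSCs from -0.78 to 0.89, so neither kept its direction. All 6 counts of Cdh6 in Sca-1+ MSCs were in replicate 2, so the difference from that population rested on 1 library. Cdh3, the P-cadherin of placenta and epithelia, had 5 counts in the Itga8+ libraries together, 1 in the BLC libraries and 0 in the other 6, so no difference was detectable at this depth.

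**Figure D3:**
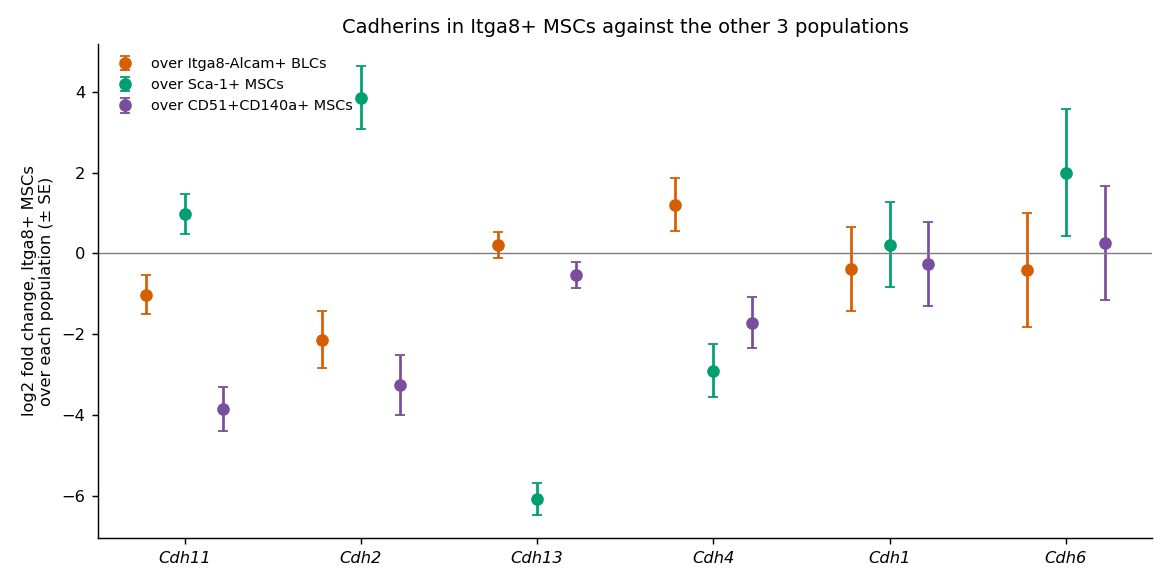
Log2 fold change of Itga8+ MSCs over each of the other 3 populations for 6 cadherins, with bars of 1 SE from the edgeR fit over all genes. Cdh15 is left out because it had 0 counts in Itga8+ MSCs, and Cdh3 because it was under the filter. The largest difference shown is that of Cdh13 against Sca-1+ MSCs, -6.09.

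A gene was called between 2 populations at an FDR under 0.1 (edgeR quasi-likelihood test over 18648 genes) and a fold change above 2. Between Itga8+ MSCs and BLCs, 1 of the 7 tested cadherins was called, Cdh15, where 3.82% of all tested genes were. Between Itga8+ and Sca-1+ MSCs 3 were called (Cdh2, Cdh4 and Cdh13), with a background of 21.7%. Between Itga8+ and CD51+CD140a+ MSCs 4 were called (Cdh2, Cdh4, Cdh11 and Cdh15), with a background of 35.6%. The calls numbered 5 between BLCs and Sca-1+ MSCs (background 26.4%), 4 between Sca-1+ and CD51+CD140a+ MSCs (20.5%) and 3 between CD51+CD140a+ MSCs and BLCs (35.3%). Since the members were chosen with these contrasts known, nothing is read from these counts. The call of Cdh4 between Itga8+ and CD51+CD140a+ MSCs was lost without Itga8+ replicate 2 or without CD51+CD140a+ replicate 2 or 3. Without Itga8+ replicate 2, Cdh11 was also called between Itga8+ and Sca-1+ MSCs, which made 4. Without Itga8+ replicate 3, Cdh2 and Cdh11 were also called between Itga8+ MSCs and BLCs.

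Cdh11 made up 66.2 ± 5.25% of the summed cadherin TPM in Itga8+ MSCs, Cdh2 20.8 ± 1.66%, Cdh13 9.21 ± 5.72% and Cdh1 2.36 ± 1.68% (SD, n = 3). Cdh15 came first in BLCs with 45.5 ± 3.30%, followed by Cdh11 with 30.6 ± 2.50% and Cdh2 with 21.7 ± 3.47%. Sca-1+ MSCs were dominated by Cdh13 at 91.0 ± 1.38%, with 6.87 ± 1.63% of Cdh11 and 1.40 ± 0.06% of Cdh4. CD51+CD140a+ MSCs held 80.3 ± 1.53% of Cdh11, 16.8 ± 1.06% of Cdh2 and 1.51 ± 0.252% of Cdh15. The leading cadherin was thus Cdh11 in 2 populations, Cdh15 in BLCs and Cdh13 in Sca-1+ MSCs, in every library of each.

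**Figure D4:**
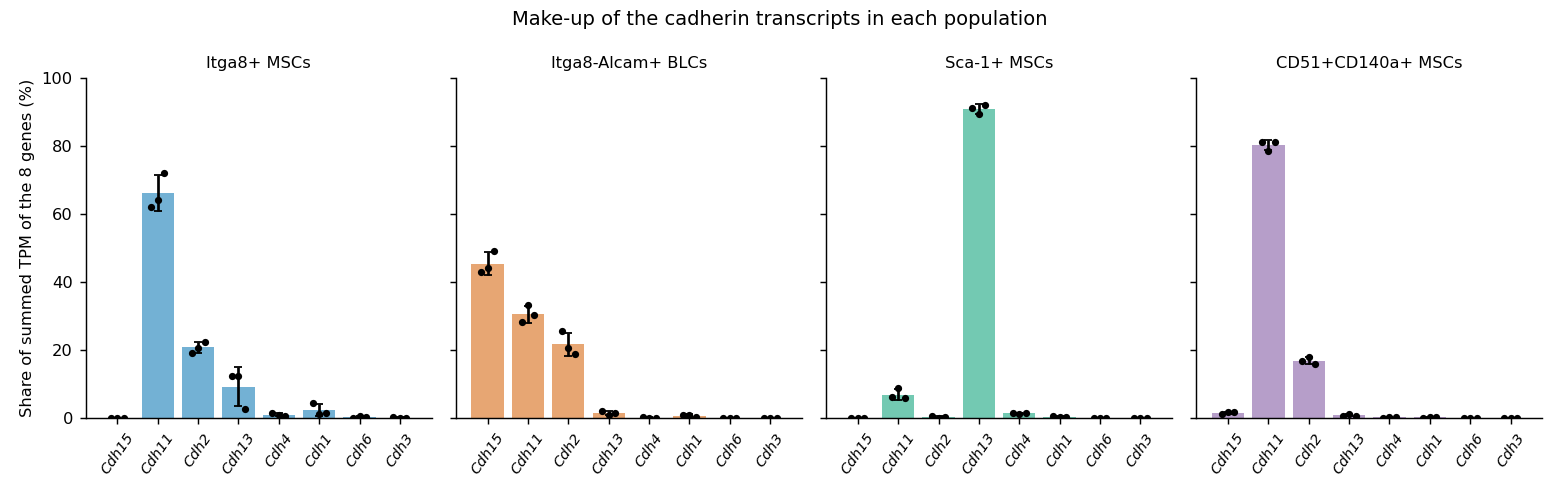
Share of each cadherin in the summed TPM of the 8 genes (%), for each population. Bars are means, error bars 1 SD (n = 3), cut at 0, and points are libraries. Cdh15 takes 45.5% in Itga8-Alcam+ BLCs and 0% in Itga8+ MSCs.

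The ratio of Cdh11 to Cdh2, both as TPM, was 3.24, 3.11 and 3.21 in the Itga8+ libraries, although the level of each gene differed more than 4-fold between them. It was 1.106, 1.602 and 1.618 in BLCs and 4.83, 4.39 and 5.15 in CD51+CD140a+ MSCs, so these 3 populations did not overlap. In Sca-1+ MSCs, where Cdh2 was scarce, it was 12.1, 296 and 17.5. The ratio of Cdh11 to Cdh15 was 0.655, 0.752 and 0.617 in BLCs and 66.7, 48.3 and 48.5 in CD51+CD140a+ MSCs, so Cdh15 exceeded Cdh11 per transcript length in all the BLC libraries and in none of the CD51+CD140a+ libraries. Within the Itga8+ libraries Itga8 followed the same order as Cdh11 and Cdh2, with 73.5, 35.2 and 199 CPM in replicates 1, 2 and 3.

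For the 4 cadherins that reached a mean of 10 CPM in some population, the genes with the most similar pattern over the 12 libraries were sought among 10564 genes by Pearson's r of log2(CPM + 1). The 12 libraries share 4 populations, so these values describe how populations differ and carry no p-value. Nearest to Cdh15 were Slc36a2, an amino acid transporter (r = 0.98), Ppfia2, a liprin scaffold protein (r = 0.98), and Car3, a carbonic anhydrase of muscle and fat (r = 0.98). Car3 averaged 2407 CPM in BLCs, 69.5 in CD51+CD140a+ MSCs and at most 0.75 elsewhere. Nearest to Cdh2 were Ephx2, an epoxide hydrolase (0.97), Efnb1, the ligand ephrin-B1 (0.97), and Gk, glycerol kinase (0.96). Cdh11 was most like Gm26626, annotated as an antisense gene (0.98), Tnfrsf19, a TNF receptor family member (0.98), and Pcdhb11, a clustered protocadherin (0.98), the first and last of which may share reads with overlapping or related genes. Cdh13 was most like Serpinb7, a serine protease inhibitor (0.99), Ifi205, an interferon-inducible gene of a family of near copies (0.98), and Fgf10, a fibroblast growth factor (0.98). Among the cadherins themselves, r was 0.85 for Cdh2 and Cdh11 and -0.82 for Cdh2 and Cdh13.

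The catenins and other partners of the cadherin tail, which were no members, were tested in the same edgeR fit. This list and those below were drawn up by known function but with earlier results of these data known, so their choice was not independent of the values. Of 11 genes 9 were tested. None was called higher and 1 lower in Itga8+ MSCs than in BLCs, none in either direction against Sca-1+ MSCs, and 2 higher and 2 lower against CD51+CD140a+ MSCs. The median log2 fold change of the list was -0.21, -0.91 and -0.50 in these comparisons, where that of all tested genes was 0.08, 0.16 and 0.18, and 3.82%, 21.7% and 35.6% of all tested genes were called in these comparisons. Ctnnb1 (beta-catenin) was at 318 ± 157 CPM in Itga8+ MSCs, 512 ± 277 in BLCs, 214 ± 35.3 in CD51+CD140a+ MSCs and 242 ± 27.4 in Sca-1+ MSCs, and none of its 3 differences from Itga8+ MSCs passed the test (edgeR FDR 0.62, 0.32 and 0.54). Ctnna1 (alpha-E-catenin), at 243 ± 111, 211 ± 67.9, 289 ± 53.5 and 318 ± 8.93 CPM in the same order, did not pass either (edgeR FDR 0.92, 0.63 and 0.48).

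Ctnnd1, which encodes the p120-catenin that holds cadherins at the membrane, was lower in Itga8+ than in CD51+CD140a+ MSCs, 5.38 ± 3.79 against 18.5 ± 3.86 CPM (log2 fold change -1.78, SE 0.53, edgeR FDR 0.027). Its relative Arvcf was also lower, 13.4 ± 9.30 against 51.0 ± 8.08 CPM (-1.93, SE 0.62, edgeR FDR 0.035). Of the p120 family, Pkp4 differed in both directions: 1.84 ± 0.629 CPM in Itga8+ MSCs was below the 8.22 ± 1.56 CPM of BLCs (-2.15, SE 0.52, edgeR FDR 0.051) and above the 0.417 ± 0.268 CPM of CD51+CD140a+ MSCs (2.12, SE 0.54, edgeR FDR 0.012). Pkp4 was named after its values were seen, as was Ctnnd2, the other gene called higher against CD51+CD140a+ MSCs, with at most 2 counts in an Itga8+ library, under the floor of 3 counts, and 0 counts in the CD51+CD140a+ libraries. That call was lost without any 1 of the CD51+CD140a+ libraries. The call of Pkp4 against BLCs was lost without Itga8+ replicate 1 or 3 and without BLC replicate 1 or 3, and with these populations fitted alone.

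**Figure D5:**
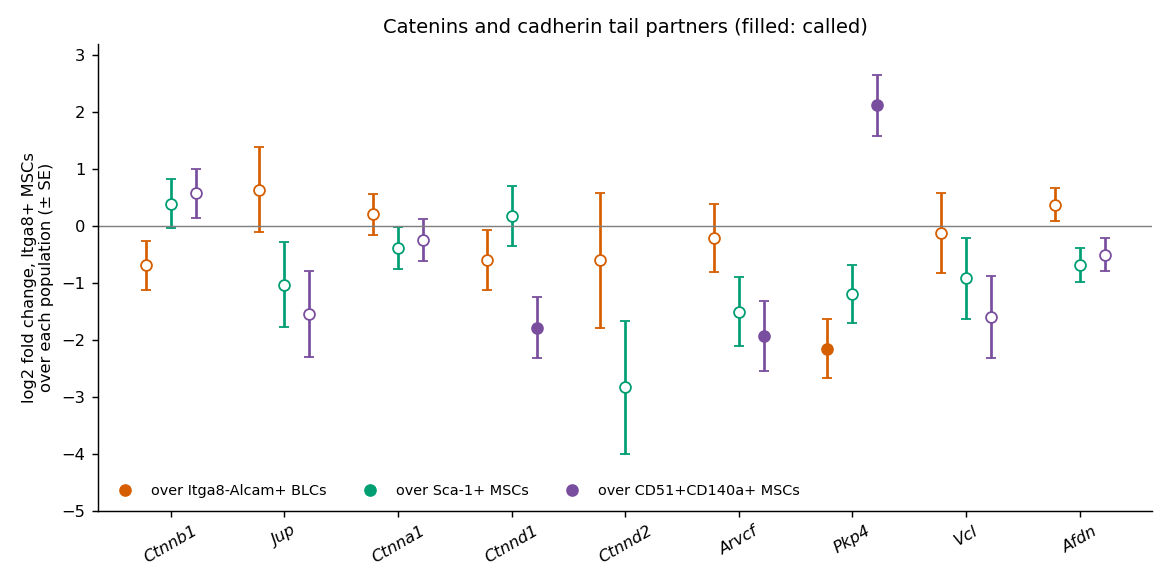
Log2 fold change of Itga8+ MSCs over each of the other 3 populations for the 9 tested catenins and tail partners, with bars of 1 SE; filled circles passed the test. Values against populations with 0 counts are left out. Ctnnb1 and Ctnna1 lie within 0.69 of 0 in all the comparisons, and Ctnnd1 and Arvcf are at -1.78 and -1.93 against CD51+CD140a+ MSCs.

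Of 15 other numbered cadherins 9 were tested. In Itga8+ MSCs 1 was called higher and 1 lower against BLCs, 1 higher and 1 lower against Sca-1+ MSCs, and 2 higher and none lower against CD51+CD140a+ MSCs, and over the 8, 8 and 7 genes with a count in either population the median log2 fold change was 0.19, -1.14 and -0.02. With the genes at 0 in 1 population set to their bound against 3 counts, it was 0.82, -0.60 and -0.02 over 7 genes each. The background shares were again 3.82%, 21.7% and 35.6%. Cdh5, the VE-cadherin of endothelium, was at 3.52 ± 1.29 CPM in Itga8+ MSCs, 0.393 ± 0.344 in BLCs, 0.458 ± 0.396 in CD51+CD140a+ MSCs and 1.26 ± 0.159 in Sca-1+ MSCs. It passed the test against CD51+CD140a+ MSCs (log2 fold change 2.94, SE 0.80, edgeR FDR 0.017) and BLCs (3.13, SE 0.82, edgeR FDR 0.077), but not against Sca-1+ MSCs (edgeR FDR 0.20). The call against BLCs was lost without Itga8+ replicate 1 or 3, BLC replicate 2 or 3, CD51+CD140a+ replicate 1 or any of the Sca-1+ libraries, and with the populations fitted alone. The other genes called were named after their values were seen, and they passed the filter on low values only through the population in which they were high, so no FDR is given for them. Cdh12, a brain cadherin, had 26 to 36 counts in the BLC libraries and 0 in the other 9, at least 9.59-fold higher in BLCs than in Itga8+ MSCs, and its call was lost without Itga8+ replicate 1 or any 1 of the BLC libraries. Cdh22 was at 1.63, 0.571 and 10.1 CPM in Itga8+ MSCs and at 0 in CD51+CD140a+ MSCs (at least 46.3-fold, and at least 12.5-fold without Itga8+ replicate 3), and its call against Sca-1+ MSCs was lost without Itga8+ replicate 3 or Sca-1+ replicate 1 or 3. Cdh9, at 0 in Itga8+ MSCs, had at most 13 counts in Sca-1+ libraries, a call lost without Itga8+ replicate 1 or 2 or any of those libraries and with DESeq2.

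The Fat, Dachsous, Celsr and unclustered protocadherin genes, the large and atypical cadherins, had 19 of 20 members tested. Against BLCs 1 was called higher and 1 lower in Itga8+ MSCs, against Sca-1+ MSCs 2 higher and 3 lower, and against CD51+CD140a+ MSCs 2 higher and 6 lower, with list medians of 0.32, -0.97 and -0.82, against the background of 3.82%, 21.7% and 35.6% of all tested genes called. Pcdh7 was lower in Itga8+ MSCs than in BLCs, 8.78 ± 5.67 against 43.5 ± 27.0 CPM (log2 fold change -2.31, SE 0.52, edgeR FDR 0.040), a call lost without Itga8+ replicate 1 or BLC replicate 2 and with these populations fitted alone. It was higher than in CD51+CD140a+ MSCs, at 1.14 ± 0.348 CPM (2.94, SE 0.55, edgeR FDR 0.0020). Pcdh19 was at 0.696 ± 0.863 CPM in Itga8+ MSCs, below Sca-1+ MSCs at 10.6 ± 3.73 CPM (-3.94, edgeR FDR 0.0087) and CD51+CD140a+ MSCs at 19.2 ± 7.79 CPM (-4.80, edgeR FDR 0.0016). Fat4, which binds Dachsous, was at 3.39 ± 2.97 CPM against 34.5 ± 10.3 CPM in CD51+CD140a+ MSCs (-3.35, edgeR FDR 0.0035), and at 11.1 ± 2.17 CPM in Sca-1+ MSCs (-1.72, edgeR FDR 0.093), a call lost without Itga8+ replicate 1 or 2 and without any 1 of the Sca-1+ or CD51+CD140a+ libraries, and with the populations fitted alone. Fat1 (-2.29, edgeR FDR 0.0032) and Pcdh18 (-2.09, edgeR FDR 0.031) were also lower in Itga8+ than in CD51+CD140a+ MSCs. Pcdh18 was at 36.31 ± 39.65 against 155 ± 28.4 CPM, and its log2 fold change ranged from -3.53 to -1.65 over the other settings and left-out libraries. The other genes called higher in Itga8+ MSCs were named after their values were seen. Dchs2, a Dachsous cadherin, was at 3.48 ± 3.04 CPM against 0.198 ± 0.111 in BLCs (4.07, SE 0.74, edgeR FDR 0.011). Celsr2 was at 3.22 ± 2.35 CPM and at 0 in CD51+CD140a+ MSCs. Fat3 (2.27 against 0.0738 CPM) and Pcdh1 (3.88 against 0.783 CPM) were called against Sca-1+ MSCs (edgeR FDR 0.045 and 0.070), but both calls were lost without Itga8+ replicate 3 and without Sca-1+ replicate 2 or 3, and that of Pcdh1 also without Itga8+ replicate 1 or Sca-1+ replicate 1 and with the populations fitted alone.

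The nectins, which pair with cadherins at adherens junctions, were all 4 tested. None was called against BLCs, and 1 was called in each direction against Sca-1+ and against CD51+CD140a+ MSCs, where the background was 21.7% and 35.6%. Nectin2 was at 14.2 ± 5.23 CPM in Itga8+ MSCs, above the 2.93 ± 0.355 CPM of Sca-1+ MSCs (log2 fold change 2.27, SE 0.31, edgeR FDR 0.00065) and below the 67.2 ± 7.85 CPM of CD51+CD140a+ MSCs (-2.25, SE 0.31, edgeR FDR 0.00023). Nectin3, at 34.2 ± 8.29 CPM, was below Sca-1+ MSCs at 84.8 ± 13.0 CPM (-1.31, SE 0.28, edgeR FDR 0.0083). Nectin4, the gene called higher against CD51+CD140a+ MSCs, was named after its values were seen. It had at most 13 counts in an Itga8+ library and 0 in the CD51+CD140a+ libraries, and its call was lost without CD51+CD140a+ replicate 1.

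Enzymes that mature or cleave cadherins were all 8 tested. None was called against BLCs, 1 higher and 4 lower against Sca-1+ MSCs, and 1 higher and 2 lower against CD51+CD140a+ MSCs, with list medians of -0.13, -1.10 and -0.50, beside background shares of 3.82%, 21.7% and 35.6%. Adam10, a protease that sheds the extracellular part of E- and N-cadherin, was at 37.5 ± 23.8 CPM in Itga8+ MSCs, below 186 ± 7.97 CPM in Sca-1+ MSCs (-2.31, SE 0.49, edgeR FDR 0.0088) and 142 ± 4.34 CPM in CD51+CD140a+ MSCs (-1.92, SE 0.49, edgeR FDR 0.012). Ncstn, the nicastrin subunit of gamma-secretase, was lower than in CD51+CD140a+ MSCs, 127 ± 49.8 against 467 ± 54.7 CPM (-1.88, SE 0.33, edgeR FDR 0.0013). Of the 3 proprotein convertases in the list, Pcsk5 was higher than in Sca-1+ MSCs (1.87, SE 0.43, edgeR FDR 0.013) and Pcsk6 higher than in CD51+CD140a+ MSCs (3.09, SE 0.76, edgeR FDR 0.010). Pcsk6 against BLCs (-2.19) and Sca-1+ MSCs (-1.40) did not pass, nor did Furin in any of the 3 comparisons (-0.84, -0.16 and -0.87). Adam17 (-1.52, edgeR FDR 0.060) and Adam15 (-1.14, edgeR FDR 0.069) were lower than in Sca-1+ MSCs, but both calls were lost without any 1 of the Sca-1+ libraries, that of Adam17 also without Itga8+ replicate 1 and that of Adam15 without Itga8+ replicate 2, and both with the populations fitted alone.

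The transcription factors best known for exchanging E-cadherin for N-cadherin were all 6 tested. Against BLCs 1 was called higher and 1 lower in Itga8+ MSCs, against Sca-1+ MSCs none higher and 3 lower, and against CD51+CD140a+ MSCs 1 higher and 3 lower. The list medians were -0.37, -0.77 and -0.71, and the background shares 3.82%, 21.7% and 35.6%. Zeb2 was at 13.6 ± 4.99 CPM in Itga8+ MSCs, below Sca-1+ MSCs at 71.2 ± 13.9 CPM (-2.39, SE 0.51, edgeR FDR 0.0087) and CD51+CD140a+ MSCs at 268 ± 40.6 CPM (-4.30, SE 0.55, edgeR FDR 0.00015). Its relative Zeb1, at 25.2 ± 8.59 CPM, was below Sca-1+ MSCs at 61.0 ± 4.74 CPM (-1.28, SE 0.37, edgeR FDR 0.038) and above CD51+CD140a+ MSCs at 11.8 ± 4.54 CPM (1.09, SE 0.37, edgeR FDR 0.044). The first of these calls was lost without Itga8+ replicate 1 or Sca-1+ replicate 2, and the second without Itga8+ replicate 3 or CD51+CD140a+ replicate 1, with the populations fitted alone and with scaling by library totals. Snai2 was lower in Itga8+ than in CD51+CD140a+ MSCs, 52.9 ± 12.5 against 183 ± 19.7 CPM (-1.79, SE 0.31, edgeR FDR 0.0012).

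The Twist genes, which have roles in the osteoblast lineage, differed in opposite directions between Itga8+ MSCs and BLCs. Twist1 was lower, 8.32 ± 2.51 against 22.3 ± 5.38 CPM (log2 fold change -1.42, SE 0.33, edgeR FDR 0.044), and Twist2, named after its values were seen, was higher, 9.08 against 0.419 CPM (4.39, SE 0.87, edgeR FDR 0.019). Twist1 was also lower than in Sca-1+ MSCs (-1.14, SE 0.33, edgeR FDR 0.036). With the populations fitted alone, neither Twist1 nor Twist2 was called against BLCs. The Twist1 call against BLCs was also lost without Itga8+ replicate 1 or BLC replicate 1 or 3, and that against Sca-1+ MSCs without Itga8+ replicate 1 or Sca-1+ replicate 3.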

How the data were processed

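The authors made cDNA with a SMART-Seq v4 kit and Nextera XT libraries, and deposited raw counts of reads per Ensembl gene, without normalization, 1 table for each of the 12 libraries. The study's methods name TopHat and Bowtie2 on mm10, whereas the submitters' processing notes list FastQC 0.11.7, Trimmomatic 0.38, HISAT2 2.1.0, SAMtools 1.9 and featureCounts 1.6.3. The annotation release and the use of strand are not given in the sources used here.

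From these counts, symbols were given to 49326 of 49585 identifiers with GENCODE M21. A gene was kept if any library held 0.5 CPM or more of it, which left 18648, and these were fitted with edgeR 4.0.16 (R 4.3.3, TMM, quasi-likelihood), all 12 libraries in 1 fit and 6 pairwise comparisons. Calls took the study's thresholds, FDR below 0.1 and more than a 2-fold change. TPM used the union of GENCODE exons. The scripts were tested on simulated counts. No 2 libraries of a population agreed within sampling noise.

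The cadherins and the gene lists were chosen with earlier results of these data known. Named genes were all 8 cadherins; from each list, genes called in a comparison of Itga8+ MSCs with a mean of at least 10 CPM in the higher population, at most 4 per list and comparison by size of fold change; Ctnnb1, Ctnna1, Ctnnd1, Cdh5 and the sort markers whatever their values; markers that bear on a cadherin; and the 3 genes most like each cadherin with at least 10 CPM. Genes named outside this rule are marked. Alternatives were other size factors, library totals, 2 other filters, DESeq2 1.42.0, the compared populations alone, a replicate block, and each library left out. Protein and promoter sequences were not used here.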

Additional observations from a re-analysis of the deposited data

How the results depend on the processing

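With 3 libraries in each population, the number of genes called between Itga8+ MSCs and Itga8-Alcam+ BLCs depended most on the processing: 712 as reported, 1203 with DESeq2, 276 with these populations fitted alone, 433 with the replicate number as a block, and 433 to 886 with 1 library left out, the lowest without BLC replicate 3. The cadherins called in that comparison were 1 as reported, 2 with DESeq2, where Cdh2 was added, and 1 to 3 with 1 library left out, with 3 without Itga8+ replicate 3 and 2 without Sca-1+ replicate 2. The genes called between Itga8+ and Sca-1+ MSCs were 4055 as reported and 2386 to 5878 with 1 library left out, the lowest 3 values, 2386, 2492 and 2642, without Sca-1+ replicates 2, 3 and 1. The cause was not tested. No called log2 fold change of a cadherin changed direction under an alternative.

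Nothing in the labels says whether libraries with the same replicate number belong together. Over the 18 pairs of libraries with the same number, the correlation of deviations from the population means was -0.74 to 0.34, and 5 exceeded 0.1. With 3 libraries in each population, and single libraries that stood apart, a weak shared effect could go unseen in these values. With the block, the cadherin calls were the same except that Cdh4 was no longer called between Itga8+ and CD51+CD140a+ MSCs (log2 fold change -1.73). With the compared populations fitted alone, that call was also lost, and Cdh2 between BLCs and CD51+CD140a+ MSCs (-1.14) and Cdh4 between Sca-1+ and CD51+CD140a+ MSCs (1.18) were called. Scaling by library totals added Cdh13 between BLCs and CD51+CD140a+ MSCs (-1.08). Ranked by Spearman's rho, 1 of the 3 nearest genes stayed the same for Cdh2 (Efnb1) and for Cdh11 (Gm26626), and none for Cdh13 or Cdh15. Of the calls named in the other gene lists, the block ended those of Pcdh7, Cdh5 and Cdh12 against BLCs, of Fat4, Pcdh1, Adam17, Adam15, Cdh9 and Cdh22 against Sca-1+ MSCs and of Ctnnd2 against CD51+CD140a+ MSCs. The depth limits statements on Cdh3, and on Cdh15 in Itga8+ and Sca-1+ MSCs, to a level under about 3 counts per library.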
